A study of Mus musculus with 80 samples.

Results

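The 10 genes described here act in protein quality control of the endoplasmic reticulum (ER). They are Herpud1, Edem1, Derl1, Derl2, Derl3, Sel1l and Syvn1, which belong to ER-associated degradation, and Dnajb9, Dnajc3 and Dnajc10, which encode J-proteins of the ER lumen. They were chosen by name, as 10 of the 18820 genes that a probe set of the array names alone, and each was read from the probe set of highest mean. All 10 were found, on 11 probe sets. On GRCm38.p6 the protein-coding genes span chr8:94386429-94395371 (Herpud1), chr6:108824045-108859356 (Edem1), chr15:57869502-57892418 (Derl1), chr11:71007440-71019841 (Derl2), chr10:75893398-75895941 (Derl3), chr12:91806043-91849157 (Sel1l), chr19:6046576-6053718 (Syvn1), chr12:44205897-44210068 (Dnajb9), chr14:118937932-118981702 (Dnajc3) and chr2:80315446-80354055 (Dnajc10). The 2 probe sets of Dnajc3 held the same value on each of the 80 arrays and were counted as 1 measurement. Heart tissue came from 80 young adult male C57BL/6J mice, each on an array of its own, and all were fed only in the dark phase before the experiment. Sleep-deprived mice (SD) had their sleep prevented through gentle handling, begun at lights-on, and were killed after 3, 6, 9 or 12 h (n = 8, 9, 9 and 8), and sleeping mice (SS) were left undisturbed and killed at the same times (n = 9 each). Baseline mice (n = 10) were killed at lights-on. The labels name no transgene and no drug. Gentle handling keeps mice awake by disturbing them, so wakefulness and handling cannot be told apart in the SD groups.

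Secretory and membrane proteins that fail to fold in the ER are recognised there, moved back across the ER membrane, marked with ubiquitin and degraded by the proteasome. In the route best known in mammals, the lectin-like protein Edem1 delivers misfolded glycoproteins to a membrane complex built around the ubiquitin ligase Hrd1, the product of Syvn1, with its partner Sel1l, the derlins and the scaffold Herpud1. ER J-proteins bring unfolded clients to the chaperone BiP, encoded by Hspa5, and drive its ATPase cycle. Many of these genes are transcribed at a higher rate when the unfolded protein response is active, through the factors Atf6, Xbp1 and Atf4. In the heart, ER quality control serves membrane channels, receptors and secreted peptides of the cardiomyocyte, and also the endothelial cells, fibroblasts and macrophages between them.

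Levels are given as log2 intensities, in which a difference of 1 is a doubling. A difference was called where the moderated test of limma, adjusted by Benjamini and Hochberg over all 35556 probe sets, gave a false discovery rate under 1%. The median of an array was 5.23 to 5.39, and pairs of arrays correlated at 0.978 to 0.995. The 5 arrays that correlated least with the rest were SD 3 h replicate 5, SD 6 h replicate 5, SD 12 h replicate 3, SS 3 h replicate 1 and SS 9 h replicate 1. The titles number the arrays consecutively without saying what the numbers stand for. Along them the sequence of groups starts 4 times, and the 4 stretches, split here by that order, are called runs. Runs 1 and 2 contain the animals of the later times (9 and 12 h) and runs 3 and 4 those of the earlier times. All 10 baseline animals are in run 3. Both states occur in every run, but changes between the earlier and the later times cannot be told apart from the runs. The mean of 10 cardiomyocyte markers was 12.36 in SD and 12.36 in SS animals, and none of them was called over all times together. The mean of 10 endothelial markers was 9.90 in SD and 9.82 in SS animals (3 of 10 called higher in SD), and that of 8 macrophage markers was 8.15 in SD and 8.07 in SS animals (2 of 8 called higher). Calls over all times also fell on smooth muscle and pericyte (2 of 8 lower), fibroblast (1 of 8 lower), neutrophil (1 of 5 lower) and plasma cell markers (1 of 7 higher). At 3 h, 1 macrophage marker was higher and 1 smooth muscle and pericyte marker lower. At 6 h, 2 endothelial markers and 1 macrophage marker were higher, and 1 endothelial and 1 fibroblast marker lower. At 9 h, 2 endothelial markers were higher and 1 fibroblast marker lower. At 12 h, 4 of 10 endothelial, 1 of 10 cardiomyocyte and 1 of 8 macrophage markers were higher. At that time 2 of 5 B cell and 2 of 5 T cell markers were lower, with list medians of -0.886 and -0.367. List medians without a called marker were as far from 0 as 0.909 for adipocytes at 6 h, 0.983 for lung epithelium at 9 h and -1.17 for adipocytes at 12 h. In whole tissue, more cells of a type and more RNA per cell cannot be told apart, and the part of these markers in the results below was not tested.

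Promoter windows are shown because the ER stress elements that Atf6 and Xbp1 bind lie close to the start of many genes of this pathway. RefSeq (GRCm38.p6) gave the 250 bases before the annotated start of 9 of the 10 genes. They were searched on both strands for ERSE (CCAAT, 9 free bases, CCACG), ERSE-II (ATTGG, 1 free base, CCACG) and the UPRE core TGACGTGG. ERSE was found in 3 of the 9 genes and ERSE-II in 1, and the UPRE core in 0. Of 27025 genes with such a window, ERSE was found in 0.13%, ERSE-II in 0.037% and the UPRE core in 0.603%. The windows that held a match are given 5′ to 3′ on the strand of the gene, with the match in capitals. The match in Derl3 reads as ERSE on the opposite strand.
Herpud1, chr8:94386179-94386428, plus strand: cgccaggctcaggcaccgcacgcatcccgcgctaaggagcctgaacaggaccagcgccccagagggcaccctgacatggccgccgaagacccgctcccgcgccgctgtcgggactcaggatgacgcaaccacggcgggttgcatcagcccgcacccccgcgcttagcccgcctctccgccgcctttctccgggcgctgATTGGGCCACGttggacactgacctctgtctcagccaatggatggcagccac
Derl3, chr10:75893148-75893397, plus strand: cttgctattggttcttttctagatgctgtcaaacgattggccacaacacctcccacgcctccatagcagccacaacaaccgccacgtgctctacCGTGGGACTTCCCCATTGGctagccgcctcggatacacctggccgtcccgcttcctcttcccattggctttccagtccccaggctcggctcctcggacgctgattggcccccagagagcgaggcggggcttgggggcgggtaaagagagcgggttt
Syvn1, chr19:6046326-6046575, plus strand: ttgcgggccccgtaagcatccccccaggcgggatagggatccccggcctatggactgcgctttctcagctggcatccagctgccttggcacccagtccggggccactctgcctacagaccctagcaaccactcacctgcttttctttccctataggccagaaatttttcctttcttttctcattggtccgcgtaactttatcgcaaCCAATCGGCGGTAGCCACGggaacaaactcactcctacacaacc
Dnajc3, chr14:118937682-118937931, plus strand: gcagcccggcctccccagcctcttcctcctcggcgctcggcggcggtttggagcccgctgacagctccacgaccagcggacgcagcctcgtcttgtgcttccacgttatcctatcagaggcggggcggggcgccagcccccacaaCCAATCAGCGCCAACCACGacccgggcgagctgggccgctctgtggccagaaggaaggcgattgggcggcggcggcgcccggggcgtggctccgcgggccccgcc
Counted from the start, the match covered positions -52 to -42 in Herpud1 and -44 to -26 in Syvn1, and it lay further upstream in Dnajc3 and furthest in Derl3. The windows of Edem1, Derl2 (2 starts), Sel1l, Dnajb9 and Dnajc10 did not hold these letters. The window of Herpud1 ends in CCAAT, 9 bases and CCAC, and whether the letters of ERSE run on past its end was not scored. The window of Edem1 lies before a start inside the span of the gene and not at its outer end. A match in a sequence is not a measure of binding.

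**Figure D1:**
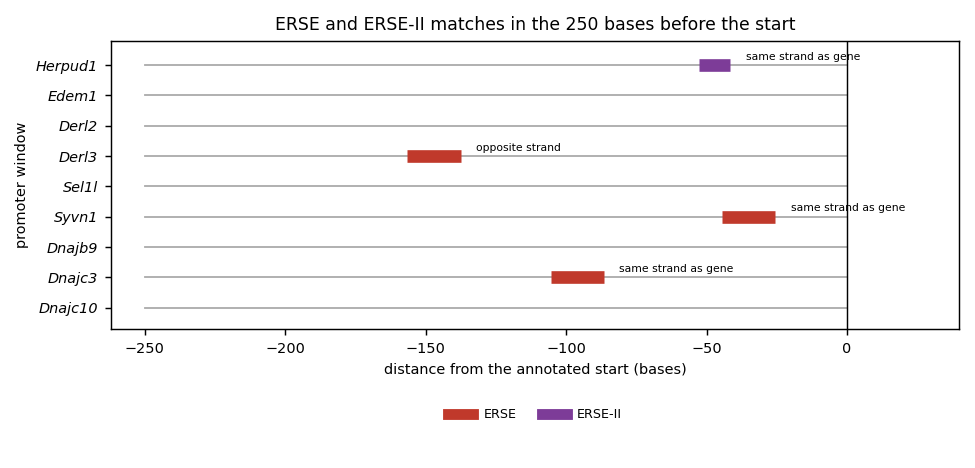
Position of ERSE and ERSE-II matches (thick bars) in the 250 bases before the annotated start, in bases from the start, for the 9 genes with a window. Matches appear in Herpud1, Derl3, Syvn1 and Dnajc3, and the line of Derl2 stands for both of its windows.

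Over all times together, 6 of the 10 genes were higher in SD than in SS hearts and 0 were lower. They were Herpud1, Edem1, Derl2, Derl3, Dnajb9 and Dnajc3. Among all probe sets, 3.43% were called higher and 4.94% lower in this comparison, so that 41% of the calls were higher, and 60% were with arrays centred on their medians. The median difference was 0.145 over the 10 genes and -0.00637 over all probe sets. By time, the calls were unevenly spread. At 3 h, 5 genes were higher in SD (0.835% of all probe sets were), at 6 h 3 genes (1.0%), at 9 h 1 gene (1.60%) and at 12 h 1 gene (1.44%). No member was called lower at 3, 6 or 9 h, where 0.754, 1.57 and 1.71% of all probe sets were, and 1 was called lower at 12 h (1.69% of all probe sets). With arrays centred on their medians, the share of higher calls among all probe sets was 52.3% in place of 39% at 6 h, 68.2% in place of 48.3% at 9 h and 68.8% in place of 46.1% at 12 h. The median difference of the 10 genes was 0.269 at 3 h, 0.193 at 6 h, 0.0809 at 9 h and 0.0321 at 12 h. The medians of all probe sets at those times were 0.0161, -0.0105, -0.0317 and -0.00201. The number of members called at 3 h was 2 when the arrays of that time were fitted alone.

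**Figure D2:**
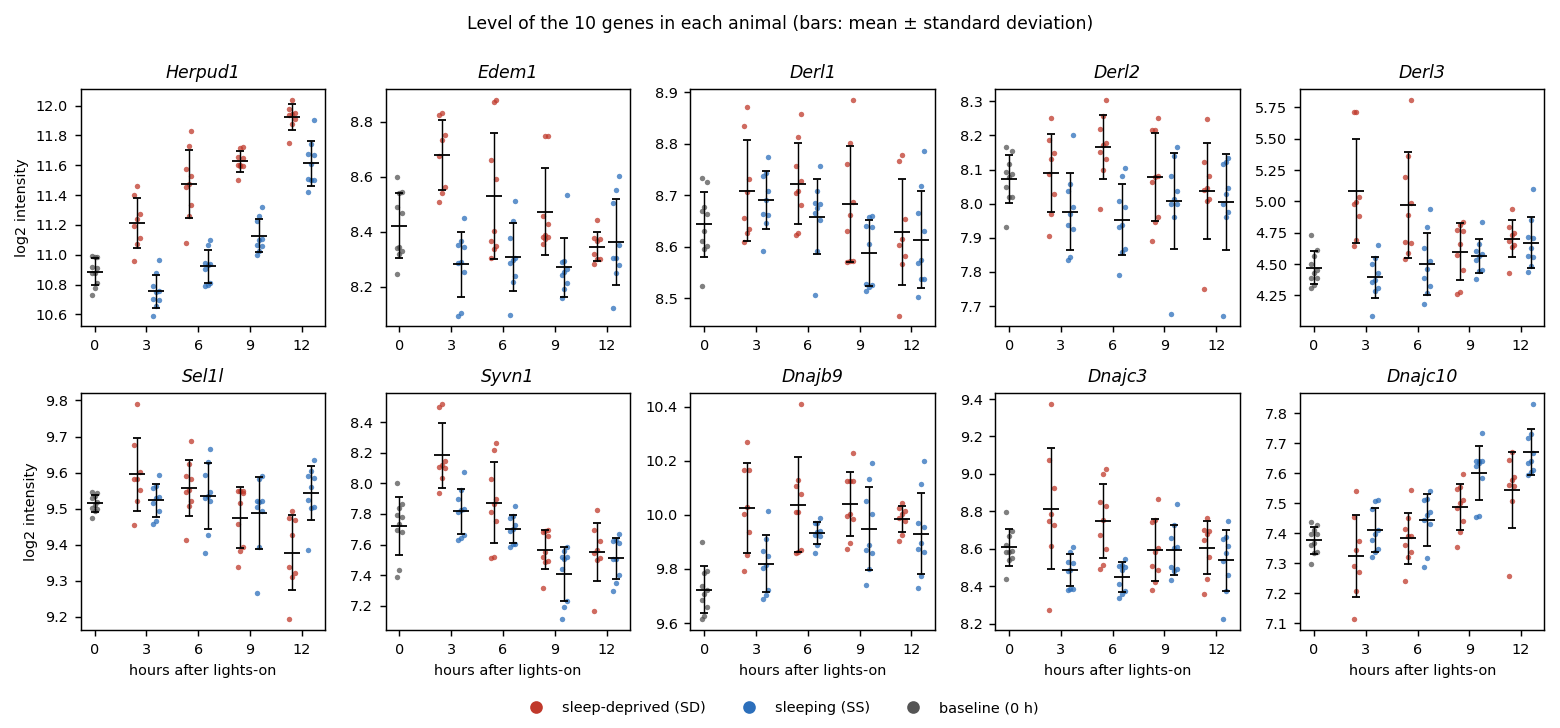
Log2 intensity of each of the 10 genes in every animal against hours after lights-on, with SD animals left of SS animals at each time and baseline at 0 h; bars give the group mean and standard deviation. Herpud1 climbed in both states with SD above SS at each time, whereas Derl3, Edem1, Syvn1 and Dnajc3 stood highest in SD animals at 3 and 6 h.

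Herpud1, the ubiquitin-domain protein that assembles the Hrd1 complex, had the largest pooled difference of the 10 genes and the only one called at each of the 4 times. At 3 h it lay between 10.96 and 11.46 in SD hearts (median 11.21) and between 10.59 and 10.96 in SS hearts (median 10.75). At 6 h the SD range was 11.08 to 11.83 (median 11.47) and the SS range 10.79 to 11.10 (median 10.93). At 9 h SD hearts ran from 11.50 to 11.72 (median 11.60) and SS hearts from 11 to 11.32 (median 11.10). The groups did not overlap at 9 h, as was true with SD higher for 0.309% of all probe sets. At 12 h SD hearts ran from 11.75 to 12.04 (median 11.94) and SS hearts from 11.42 to 11.90 (median 11.61), and 6 of 8 SD animals exceeded each SS animal. All 34 SD animals exceeded the SS mean of their time, and 30 exceeded the highest SS animal of their time.

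The SD minus SS difference of Herpud1 was 0.46 ± 0.06 at 3 h (SE, adjusted p = 1.07e-06), 0.55 ± 0.06 at 6 h (adjusted p = 1.46e-09), 0.50 ± 0.06 at 9 h (adjusted p = 4.39e-08) and 0.31 ± 0.06 at 12 h (adjusted p = 0.000923), all by limma. The pooled difference was 0.45 ± 0.08, or 1.37-fold (adjusted p = 5.16e-06). It was called within each of the 4 runs taken alone, at 0.44, 0.37, 0.45 and 0.57 in runs 1 to 4. The 4 differences were not shown to differ among themselves (interaction adjusted p = 0.287).

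Herpud1 was also the gene that moved furthest with time in both states. Baseline hearts held 10.89 ± 0.09 (standard deviation, n = 10). The SD groups lay 0.33, 0.59, 0.74 and 1.04 above baseline at 3, 6, 9 and 12 h, and all 4 differences were called. The SS groups at 9 and 12 h lay 0.24 and 0.73 above baseline and were called, whereas SS 3 h (10.75 ± 0.11, n = 9) and SS 6 h (10.92 ± 0.11, n = 9) were not. At 9 and 12 h every animal of either state exceeded the highest baseline animal. In order of mean level the groups ran SD 12 h, SD 9 h, SS 12 h, SD 6 h, SD 3 h, SS 9 h, SS 6 h, baseline and SS 3 h. SD 9 h and SS 12 h were separated by 0.01, and SD 3 h and SS 9 h by 0.08, both within the residual standard deviation of 0.13. SS 6 h, baseline and SS 3 h were each within that spread of the next.

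Edem1, which recognises misfolded glycoproteins after mannose trimming, was higher in SD at 3 h. SD hearts then held 8.51 to 8.83 (median 8.70) and SS hearts 8.10 to 8.45 (median 8.29). The groups did not overlap, as was true with SD higher for 0.211% of all probe sets. The difference of 0.40 ± 0.07 was called (adjusted p = 5.97e-05, limma). At 6 and 9 h the differences of 0.22 and 0.20 did not pass the threshold (adjusted p = 0.0321 and 0.0461), although 8 of 9 and 9 of 9 SD animals exceeded the SS mean. At 12 h SD hearts (8.28 to 8.44, median 8.34) lay inside the SS range (8.12 to 8.60, median 8.31), with a difference of -0.02 ± 0.07. The pooled difference was 0.20 ± 0.04 (adjusted p = 7.58e-05), and 0.14 without the 3 h animals (adjusted p = 0.0198). Baseline hearts averaged 8.42 ± 0.12 (n = 10), between the SD and SS groups of 3, 6 and 9 h, and no SD or SS group was called against baseline.

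The derlins are rhomboid-like membrane proteins thought to form the exit path for degradation substrates, and Derl1, Derl2 and Derl3 are given here in turn, the most changed first. Derl3 had the largest difference of the 10 genes at 3 h. SD hearts held 4.64 to 5.72 (median 4.99) and SS hearts 4.09 to 4.65 (median 4.37), and 7 of 8 SD animals exceeded each SS animal. The difference was 0.69 ± 0.12 (adjusted p = 8.57e-05, limma), a 1.61-fold change. At 6 h SD hearts held 4.54 to 5.81 (median 4.89) and SS hearts 4.18 to 4.94 (median 4.46), a difference of 0.47 ± 0.12 (adjusted p = 0.0069). At 9 and 12 h the differences were 0.04 ± 0.12 and 0.03 ± 0.12. The interaction of state and time had an adjusted p of 0.0278, past no threshold here. Its pooled difference of 0.30 ± 0.07 (adjusted p = 0.00104) was 0.18 without the 3 h animals (adjusted p = 0.0902). Without the 6 h animals it was 0.24 (adjusted p = 0.0271, limma).

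Derl3 was dim. Its mean of 4.65 lay at the 40.9th percentile of all probe sets, and the standard deviation was 0.41 in SD 3 h and 0.42 in SD 6 h, against 0.16 in SS 3 h and 0.25 in SS 6 h. In the SD 3 h animals replicates 4 and 8 stood highest, at 5.71 and 5.72, and in the SD 6 h animals replicate 1, at 5.81. Derl3 is abundant in secretory cells such as plasma cells, so the mean of 7 plasma cell markers was read beside it. That mean was 5.14 (range 4.92 to 6.02) in SD 3 h and 4.92 (4.83 to 5.13) in SS 3 h hearts, and 5.23 (4.84 to 5.79) in SD 6 h and 5.02 (4.83 to 5.69) in SS 6 h hearts. No plasma cell marker was called at 3 or 6 h, and the median difference of the 7 was 0.222 at 3 h and 0.154 at 6 h. SD 3 h replicate 8 had the highest marker mean of its group (6.02). SD 3 h replicate 4 and SD 6 h replicate 1 had marker means of 5.0 and 4.87 with Derl3 as high. In SD 6 h, replicates 2, 6 and 8 had marker means of 5.79, 5.69 and 5.76 and Derl3 levels of 5.36, 4.99 and 5.19. Among sleeping animals, the highest Derl3 and the highest marker mean fell on the same animal at 6, 9 and 12 h. These were SS 6 h replicate 8 (4.94 and 5.69), SS 9 h replicate 7 (4.84 and 5.39) and SS 12 h replicate 9 (5.10 and 5.88). In SS 3 h they fell on different animals, replicates 1 and 3, and they also differed in baseline, SD 9 h and SD 12 h. In SD 12 h the animal with the highest Derl3 (replicate 3, 4.94) had the lowest marker mean of its group (4.69). The mean of 6 adipocyte markers was read as well. It was the highest of its group in SD 3 h replicate 8 (8.42) and SS 6 h replicate 8 (7.86). The same was true of SS 12 h replicate 9 (8.60), whereas in SS 9 h replicate 1 was highest (8.02). In SD 6 h, replicates 2, 6 and 8 had 8.13, 8.46 and 8.64. SD 3 h replicate 4 and SD 6 h replicate 1 had 4.78 and 4.75. The part of plasma cells or adipocytes in the Derl3 difference was not tested. The call at 6 h was kept in 8 of 18 cases when single arrays were left out, with the smallest difference, 0.36, without SD 6 h replicate 1 (adjusted p = 0.038), and that at 3 h in 17 of 17. With the arrays of one time fitted alone neither was called (adjusted p = 0.0175 at 3 h and 0.106 at 6 h).

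Derl2 had its largest difference at 6 h. SD 6 h hearts held 7.98 to 8.30 (median 8.17) and SS 6 h hearts 7.79 to 8.10 (median 7.94), and 7 of 9 SD animals exceeded each SS animal. The difference of 0.21 ± 0.06 missed the threshold (adjusted p = 0.0106). It passed with 6 alternative settings, among them repeated quantile normalisation (adjusted p = 0.00364). The pooled difference of 0.11 ± 0.03 was called (adjusted p = 0.00658). Leaving out single arrays kept that call in 62 of 70 cases. It was lost without the animals of 3, 6 or 9 h (adjusted p = 0.0318, 0.212 and 0.0141, limma). Without those of 12 h it was kept (adjusted p = 0.00352). Derl1 had a pooled difference of 0.05 ± 0.02 (adjusted p = 0.156) and was not called at any time. Its group means ran from 8.59 in SS 9 h to 8.72 in SD 6 h, each within the residual standard deviation of 0.09 of the next.

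Syvn1, the Hrd1 ubiquitin ligase, and Sel1l, the adaptor that stabilises it, work as a pair. Syvn1 held 7.94 to 8.52 in SD 3 h hearts (median 8.11) and 7.63 to 8.07 in SS 3 h hearts (median 7.83). Of 8 SD animals, 6 exceeded each SS animal, and the difference of 0.37 ± 0.09 was called (adjusted p = 0.00501, limma). It was not called without the 5 arrays that correlated least (0.30, adjusted p = 0.0376) or without SD 3 h replicate 4 (0.32, adjusted p = 0.0222) or replicate 5 (0.32, adjusted p = 0.0225), and was kept in 12 of 17 cases when single arrays were left out. At 6, 9 and 12 h the differences were 0.17, 0.16 and 0.04, not called. The pooled difference of 0.18 ± 0.06 missed the threshold (adjusted p = 0.0468), but was called with time of day as a factor (0.18, adjusted p = 0.000916) or run as a block (0.18, adjusted p = 0.00257). The pooled comparison itself has no term for time.

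Sel1l was called lower in SD at 12 h, the only member called lower in the comparisons of SD with SS as fitted here, without terms for time or run. SD 12 h hearts held 9.19 to 9.49 (median 9.38) and SS 12 h hearts 9.39 to 9.64 (median 9.56). All 8 SD animals lay below the SS mean and 4 below each SS animal. The difference was -0.17 ± 0.04 (adjusted p = 0.00533). It was -0.13 with arrays centred on their medians (adjusted p = 0.026) and -0.14 without SD 12 h replicate 3 (adjusted p = 0.034). The call was kept in 10 of 17 cases when single arrays were left out. At 3 h the difference was 0.07 ± 0.04 (adjusted p = 0.369) and over all times -0.02 ± 0.02 (adjusted p = 0.697), and the interaction had an adjusted p of 0.0471. Baseline hearts were tight, at 9.52 ± 0.02 (n = 10), and 7 of 8 SD 12 h animals lay below the lowest of them.

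**Figure D3:**
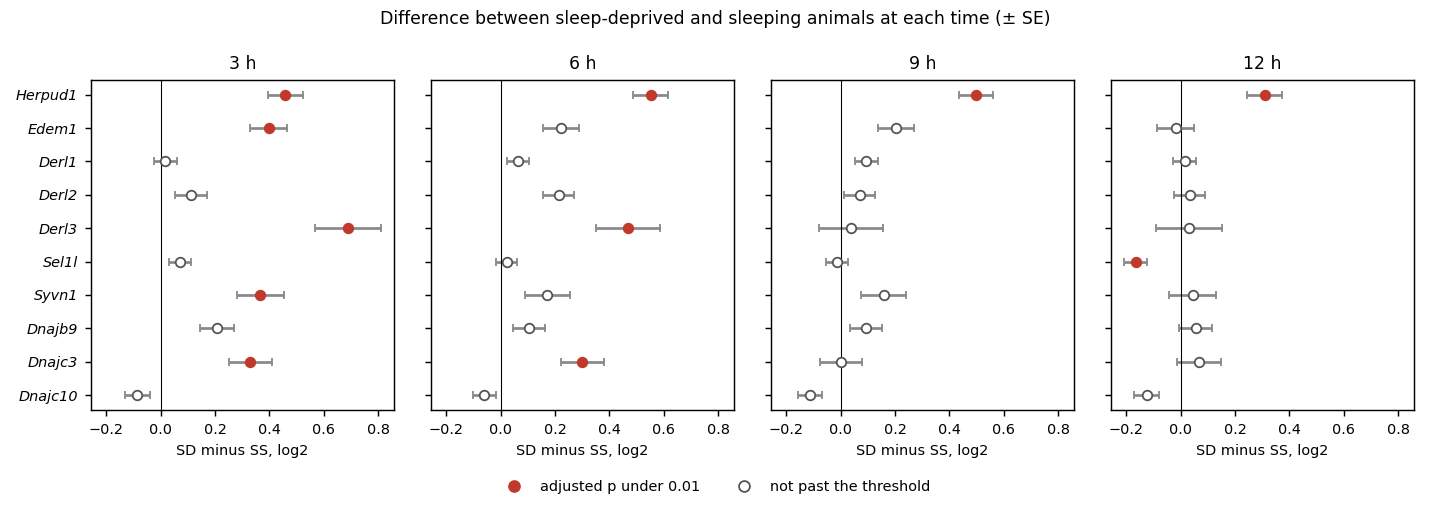
SD minus SS difference in log2 intensity (± SE) for the 10 genes at 3, 6, 9 and 12 h; filled points passed an adjusted p of 0.01. Filled points number 5, 3, 1 and 2 at the 4 times, and Herpud1 is filled in each panel.

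Among the J-proteins, Dnajc3, also called P58IPK, is a BiP co-chaperone that binds unfolded clients. It was higher in SD at 3 and 6 h. SD 3 h hearts held 8.27 to 9.38 (median 8.77) and SS 3 h hearts 8.38 to 8.61 (median 8.49). Of 8 SD animals, 7 exceeded each SS animal and 1, replicate 5, lay below all of them. At 6 h SD hearts held 8.49 to 9.03 (median 8.76) and SS hearts 8.34 to 8.55 (median 8.48), and all 9 SD animals exceeded the SS mean. The differences were 0.33 ± 0.08 at 3 h (adjusted p = 0.00733) and 0.30 ± 0.08 at 6 h (adjusted p = 0.00936, limma). Both lay near the threshold. The call at 3 h was kept in 8 of 17 cases and that at 6 h in 4 of 18 when single arrays were left out, and without SD 3 h replicate 4 the difference was 0.25 (adjusted p = 0.046). At 9 h the difference was 0.000194 ± 0.08 and at 12 h 0.07 ± 0.08. The pooled difference was 0.17 ± 0.04 (adjusted p = 0.00261). It was not called without the 3 h animals (0.12, adjusted p = 0.0458, limma) or the 6 h animals (0.13, adjusted p = 0.108). Without those of 9 or 12 h it was called (adjusted p = 0.0013 and 0.00403). Of the runs that hold 3 and 6 h animals, run 3 alone gave 0.46 (adjusted p = 0.0016) and run 4 alone 0.15 (adjusted p = 0.463).

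Dnajb9, also called ERdj4, guides misfolded proteins to degradation and keeps the sensor Ire1 inactive. Its pooled difference was 0.12 ± 0.03 (adjusted p = 0.00594), but no single time was called. SD 3 h hearts held 9.79 to 10.27 (median 10.02) and SS 3 h hearts 9.69 to 10.01 (median 9.82), a difference of 0.21 ± 0.06 (adjusted p = 0.0356). At 6, 9 and 12 h the differences were 0.11, 0.09 and 0.05, and the groups overlapped. The pooled call was lost without the animals of any single time (adjusted p = 0.0891, 0.029, 0.0205 and 0.0108 without 3, 6, 9 and 12 h). Against baseline (9.72 ± 0.09, n = 10) Dnajb9 was higher in all 4 SD groups, by 0.30, 0.31, 0.32 and 0.26, and in SS 9 h and SS 12 h, by 0.23 and 0.21.

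Dnajc10, also called ERdj5, reduces disulfide bonds of proteins bound for degradation. Its mean was lower in SD than in SS at each time. The differences were -0.09, -0.06, -0.11 and -0.12 at 3, 6, 9 and 12 h, none called. Of 34 SD animals, 29 lay below the SS mean of their time. At 12 h SD hearts held 7.26 to 7.67 (median 7.57) and SS hearts 7.59 to 7.83 (median 7.64), and 6 of 8 SD animals lay below each SS animal. The pooled difference of -0.10 ± 0.03 missed the threshold (adjusted p = 0.0355). It was called with time of day as a factor (-0.10, adjusted p = 0.00155) or run as a block (-0.10, adjusted p = 0.00141).

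Whether the state difference itself changed with time was tested in 1 model. By limma 0 of 10 members were called (0.371% of all probe sets were), and 4 had an unadjusted p under 0.05, Derl3 (0.000214), Sel1l (0.000719), Edem1 (0.000833) and Dnajc3 (0.00656). The decline of the Edem1, Derl3, Syvn1 and Dnajc3 differences from 3 to 12 h is therefore given as values only.

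The comparison with baseline asked which state had moved away from the level at lights-on. No member was called in SS 3 h (0.104% of all probe sets were higher and 0.0562% lower) or SS 6 h (0.813% and 0.726%). In SS 9 h, Herpud1, Dnajb9 and Dnajc10 were higher (3.47% of all probe sets) and Syvn1 was lower, by -0.31 ± 0.08 (4.96%). In SS 12 h, Herpud1, Dnajb9 and Dnajc10 were higher (5.33%) and no member was lower (6.51%). In the SD groups, 4 members were higher at 3 h (0.726% of all probe sets), namely Herpud1, Derl3 (0.61 ± 0.12), Syvn1 (0.46 ± 0.08) and Dnajb9. At 6 h 3 were higher (1.75%), Herpud1, Derl3 (0.50 ± 0.11) and Dnajb9, and at 9 h 2, Herpud1 and Dnajb9 (2.65%). At 12 h Herpud1, Dnajb9 and Dnajc10 were higher (3.85%) and Sel1l lower, by -0.14 ± 0.04 (5.90%). With centred arrays, the share of higher calls was 39.1% in place of 52.8% in SS 6 h, 30.8% in place of 41.1% in SS 9 h and 26.6% in place of 45% in SS 12 h. The 8 comparisons share the baseline animals, and those of 9 and 12 h set arrays of different runs against each other. Those of 3 and 6 h do so in part, because 4 animals of each group are in run 4 and baseline is in run 3 alone. The 3 and 6 h counts were 4 and 3 in SD, and 0 and 0 in SS, with run as a block as well.

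Slopes over 0 to 12 h were fitted in each state. Over deprivation (baseline and SD, 44 arrays) Herpud1 rose by 0.0833 per hour, Dnajb9 by 0.02 and Dnajc10 by 0.016 (4.07% of all probe sets rose), and no member fell (6.09%). Over sleep (baseline and SS, 46 arrays) Herpud1 rose by 0.0597 per hour, Dnajc10 by 0.0257 and Dnajb9 by 0.0184 (8.23%), and Syvn1 fell by 0.0271 per hour (9.32%). Of all slopes called over sleep, 46.9% were rises, and 28.5% were with centred arrays. The span from 0 to 6 h of sleep lies within runs 3 and 4, with baseline in run 3 alone. Over that span Herpud1 had a slope of 0.00515 (adjusted p = 0.847, limma), Dnajc10 of 0.011 (adjusted p = 0.332) and Syvn1 of -0.00244 (adjusted p = 0.943). There 1 member, Dnajb9, was called (0.0349, adjusted p = 0.00119). From 0 to 6 h of deprivation Herpud1 (0.098 per hour) and Dnajb9 (0.0532) were called. With baseline left out, the deprivation slope of Dnajb9 was -0.00394 (adjusted p = 0.83), whereas Syvn1 fell by 0.0735 per hour (adjusted p = 1.18e-05), Edem1 by 0.035 (adjusted p = 0.00343) and Sel1l by 0.0245 (adjusted p = 0.00104). The sleep slope of Dnajb9 was 0.0117 without baseline (adjusted p = 0.172) and 0.0101 with a common intercept for both states (adjusted p = 0.0771), not called in either case.

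**Figure D4:**
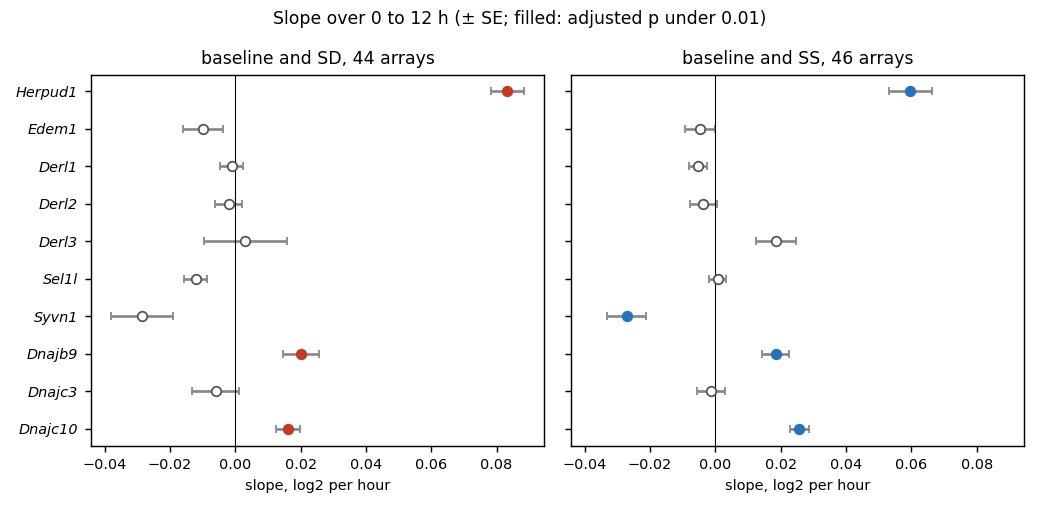
Slope of log2 intensity per hour (± SE) over baseline and SD animals (left) and over baseline and SS animals (right) for the 10 genes; filled points passed an adjusted p of 0.01. Herpud1, Dnajb9 and Dnajc10 have filled points above 0 in both panels, and Syvn1 has one below 0 over sleep.

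The study defined sleep-repressed transcripts as higher in SD and falling over sleep, and sleep-enhanced transcripts as lower in SD and rising over sleep. The slope used here was fitted to baseline and SS animals, whereas the paper's methods describe a common intercept with a slope for each state. With no term for time or run in the comparison of states, no member met either definition, against 1.14% and 1.48% of all probe sets. With time of day as a factor, Syvn1 was sleep-repressed and Dnajc10 sleep-enhanced (1.67% and 1.99% of all probe sets were), and likewise with run as a block (1.7% and 1.91%). Herpud1 was higher in SD but rose over sleep as well, and so did Dnajb9 in the slope fitted to baseline and SS animals. Edem1, Derl2 and Dnajc3 were higher in SD with no called slope over sleep. Derl3 was higher in SD, and its rise over sleep was just short of the call (adjusted p = 0.0101, limma). That adjustment covered the probe sets called between states. With time of day or run in the comparison of states, the rise of Derl3 was called (adjusted p = 0.00904 and 0.00914).

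Within groups, the same animal was at times the highest for several members, and how often this holds for other genes was not counted. Among the SD 3 h animals, replicate 4 had the highest level for 5 of the 10 genes (Derl2, Sel1l, Syvn1, Dnajb9 and Dnajc3), and among the SD 6 h animals replicate 1 for 4 (Derl3, Sel1l, Syvn1 and Dnajb9). The SD 9 h replicate 2 was likewise highest for 4 (Sel1l, Syvn1, Dnajb9 and Dnajc3), SS 3 h replicate 6 for 5 (Herpud1, Sel1l, Syvn1, Dnajb9 and Dnajc3) and SS 12 h replicate 9 for 4 (Edem1 and the 3 derlins). In the other groups no animal was highest for more than 3. Deviations from the group means were correlated over the 80 arrays as a description. All values of 1 animal come from 1 array and share its quality. The 45 pairs of members ran from -0.389 (Syvn1 and Dnajc10) to 0.525 (Dnajb9 and Dnajc3), with a median of 0.0941, and 33 pairs were above 0. Correlations with genes outside the 10 reached higher, at 0.708 for Dnajc3 with Hspa5, 0.694 for Sel1l with Sdf2l1 (a J-protein partner in the ER lumen) and 0.573 for Sel1l with Xbp1. Herpud1 had -0.0736 with Hspa5 and -0.286 with Edem1, and its highest value was 0.162, with Xbp1.

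**Figure D5:**
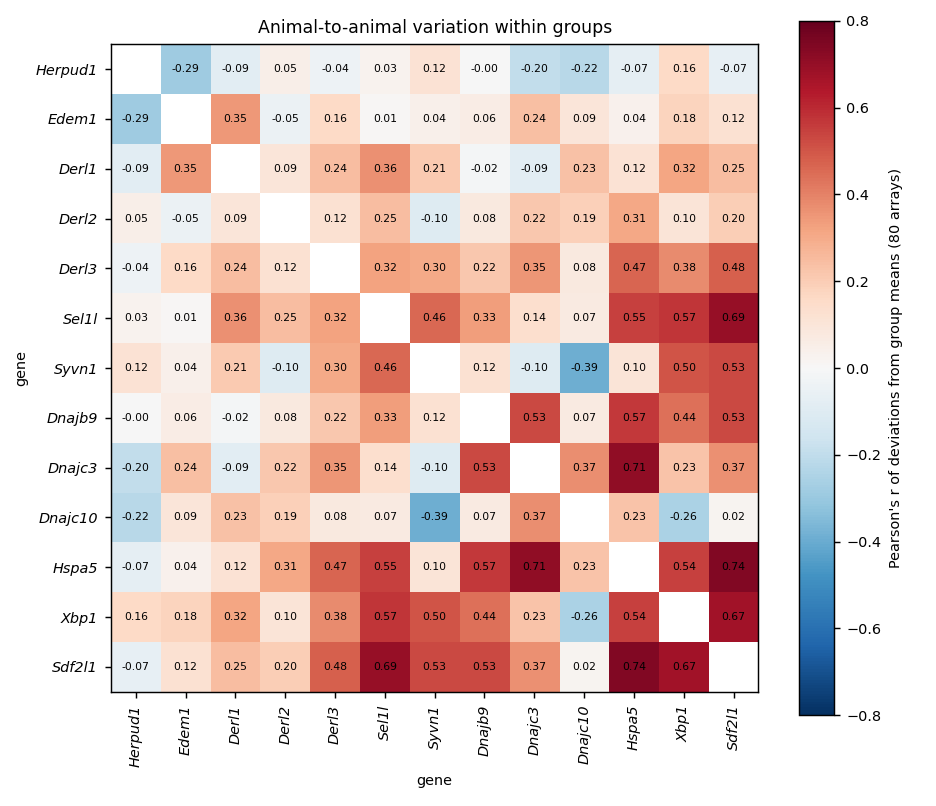
Pearson's r of deviations from the group means over 80 arrays, for the 10 genes and for Hspa5, Xbp1 and Sdf2l1 (red positive, blue negative). Dnajc3 with Hspa5 (0.71) and Sel1l with Sdf2l1 (0.69) are the highest values that involve one of the 10 genes, and Herpud1 has no value above 0.16.

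Of the other genes of the pathway, the list around BiP had the most calls at 3 h. It holds BiP, its exchange factors, enzymes of disulfide bonds, and other chaperones and partners of the ER. Over all times, as for the lists that follow, 3.43% of all probe sets were higher in SD and 4.94% lower. In the list around BiP, 7 of 14 measured genes were higher and 0 lower. The 4 with the smallest p were Creld2 (0.42), Sdf2l1 (0.56), Ero1b (0.20), an oxidase that supplies disulfide bonds, and Hsp90b1 (0.18), the ER chaperone Grp94. At 3 h 6 of 14 were higher (0.835% of all probe sets) and the list median was 0.312, at 6 h 4 of 14 (1.0%), at 9 h 1 (1.60%) and at 12 h 0 (1.44%), where the median was 0.00295. Hspa5 held 11.59 to 12.20 in SD 3 h hearts and 11.34 to 11.60 in SS 3 h hearts. Its differences of 0.31 ± 0.08 at 3 h (adjusted p = 0.0143) and 0.14 ± 0.05 over all times (adjusted p = 0.049) were not called. ERSE or ERSE-II was found in the windows of 5 of 12 genes of this list, Creld2, Ero1b, Hsp90b1, Hspa5 and Pdia6.

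Of the sensors and factors of the unfolded protein response, 7 of 13 were higher in SD over all times and 0 lower. They included Chac1 (0.58), an enzyme that degrades glutathione and a target of Atf4, Atf6 (0.15), Atf4 (0.18) and Xbp1 (0.26). By time, 3 of the 13 were higher in SD at 3 h, 3 at 6 h, 1 at 9 h and 3 at 12 h (0.835, 1.0, 1.60 and 1.44% of all probe sets). Xbp1 held 9.91 to 10.71 in SD 3 h and 9.89 to 10.51 in SS 3 h hearts, a called difference of 0.28 (adjusted p = 0.00466). Its means in SD and SS hearts were 10.38 and 10.13 at 6 h, 10.15 and 9.83 at 9 h, and 9.98 and 9.78 at 12 h. At 9 h the groups did not overlap, as was true with SD higher for 0.309% of all probe sets. These probe sets measure the transcript and not its splicing, nor cleavage of Atf6.

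In the rest of the degradation machinery, calls went in both directions. Of 11 measured lectins and mannosidases, 2 were higher (Man1a, 0.16, and Uggt1, 0.07) and 1 lower (Uggt2, -0.14). Of 33 ligases, ubiquitin-conjugating enzymes and membrane partners, 3 were higher and 5 lower, with Ube2j1 at 0.13, Aup1 at 0.11, Trim13 at -0.27 and Erlin2 at -0.17. Of 15 genes for the ATPase p97 and its cytosolic partners, 3 were higher, Ubqln1 (0.11), Ubqln2 (0.13) and Psmd4 (0.10), and 0 lower. Of 8 other ER J-proteins, 1 was higher, Dnajb12 (0.17), and the BiP co-chaperone Dnajb11 had 0.12 (adjusted p = 0.102). At 3 h no gene of these 4 lists was called in either direction, and at 6 h 1 lectin or mannosidase was lower (1.57% of all probe sets). At 9 h the lists, in this order, had 1, 2, 2 and 1 genes higher (1.60%), and 2 ligases or partners were lower (1.71%). At 12 h 2 ligases or partners and 1 other J-protein were higher (1.44%), and 3 ligases or partners lower (1.69%). The pooled medians of the 4 lists were -0.0258, 0.035, 0.0163 and 0.00492, against 0.145 for the 10 members and 0.176 for the list around BiP.

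Promoter matches were also set beside the calls, with no test. Of the 5 members called at 3 h, 4 had a match in their window, and Edem1 did not. Outside the 10 genes, 22 measured genes had an ERSE or ERSE-II match. They include genes of the list around BiP. At 3 h 2 of them (9.09%) were higher in SD and 0 lower, against 1.2% and 0.963% of 14749 genes with a window. At 12 h 0 of the 22 were called, against 2.06% higher and 2.24% lower. Of the genes with the UPRE core, 1.72% were higher and 1.72% lower at 3 h. The median difference at 3 h was 0.0731 over the 22 genes and 0.0227 over the 14749.

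For the 3 members with the smallest pooled p, the genes with the most similar profile over the 9 group means were sought among 16543 genes. The r over 80 arrays given beside it is of the levels themselves, which carry the group means too. Those of Herpud1 were Slc43a3 (r = 0.988 over 9 groups and 0.927 over 80 arrays), Fam102b (0.988 and 0.781) and Fam107a (0.987 and 0.95). Those of Edem1 were Hsph1 (0.966 and 0.654) and Dnaja1 (0.963 and 0.673), both cytosolic chaperone genes, and P4ha1 (0.95 and 0.664), a collagen prolyl hydroxylase. Taken as deviations from the group means, Edem1 and Hsph1 had an r of only 0.243 over the 80 arrays. Hsph1 held 8.92 to 9.68 in SD 3 h hearts and 8.18 to 8.48 in SS 3 h hearts. The genes closest to Derl3 were Cpeb4 (0.953), Spin2c (0.948) and Rxfp3 (0.934), but over the 80 arrays their r was only 0.187, 0.252 and 0.258. Profiles over 9 means are described here and were not tested.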

How the data were processed

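Total RNA of mouse heart was hybridised to Affymetrix Mouse Gene 1.0 ST arrays, 1 per animal. The authors normalised the 80 arrays together by RMA, and the deposited values are log2 intensities whose decimal points were missing, so that each is a string of digits (a unit classed as other). A string that starts with 10, 11, 12 or 13 was read with 2 digits before the point (173798 of 2844480 values), and any other with 1. Of the 35556 probe sets 21218 name a single gene, 1881 name several genes and 12457 name no gene. The program used in the study for the test of state was not used here. limma 3.58.1 (R 4.3.3) was used instead, with SD against SS on 70 arrays, a fit of 9 group means on 80 arrays for single times, interaction and baseline, and slopes on 46 or 44 arrays. Adjustment covered all probe sets at a false discovery rate of 1%. For sleep-repressed and sleep-enhanced members, slopes were adjusted over the probe sets called between states. The fits were tested on simulated data. Arrays give no read depth, so precision is set by the number of animals. Nothing in the labels says more than that each sample is a separate animal of its group.

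Promoter windows came from RefSeq (GRCm38.p6) and figures from matplotlib 3.10.9, with pandas 2.3.3 and numpy 2.4.6 in python 3.11.15. All 10 members were named, up to 4 genes of each pathway list by pooled p, Hspa5, and 3 genes of most similar profile for each of 3 members. Members and lists were chosen with earlier results of these data known. The counts of calls by promoter match, the naming of Pdia6 and the genes outside the 10 used for correlations were chosen after values were seen. Alternatives were a filter at the 40th percentile of mean intensity, centring, a repeated quantile step, array weights, a single probe set for each symbol, shrinkage with a trend and robust limits, the 5 least correlated arrays left out, time of day or run in the model, single runs or times, and other trend models. Leaving out each array in turn, and time or run in the definition of sleep-repressed and sleep-enhanced members, were added after seeing the data.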

Additional observations from a re-analysis of the deposited data

Results flagged for a closer look

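Of 90 sets of values (10 genes in 9 groups), 5 held an animal whose gap to its nearest neighbour was large for the range of its group by Dixon's test, about as many as the 1 in 20 that chance flags. In SS 9 h, replicate 1 stood above the other animals for Edem1 (8.5344, next 8.2934) and below them for Derl2 (7.6775, next 7.962), and it is one of the 5 arrays that correlated least with the rest. In SS 12 h, replicate 2 was low for Derl2 (7.6721, next 7.9602). In SD 6 h, replicate 1 was high for Dnajb9 (10.4111, next 10.1295), and the same animal had the highest Derl3, Sel1l and Syvn1 of its group. In SD 12 h, replicate 3 was low for Dnajc10 (7.2589, next 7.5068), and it is also one of the least correlated arrays. Without SS 9 h replicate 1 the pooled difference of Derl2 was 0.10 (adjusted p = 0.0103), and without SS 12 h replicate 2 it was 0.10 (adjusted p = 0.0106), both by limma and just short of the call.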

How the results depend on the processing

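The pooled count of 6 members was 1, 1, 2 and 1 in runs 1 to 4 alone, 1 without the 3 h animals and 2 without the 6 h animals, settings that each use fewer arrays (single runs had time of day as a factor). In run 1 alone Dnajb9 was -0.00309 and Dnajc3 -0.0148, and in run 2 alone Derl3 was -0.0546, in place of positive pooled differences. These 2 runs hold 9 and 12 h animals only. Fitted on the arrays of its time alone, the count was 2 at 3 h, 1 at 6 h and 1 at 12 h. Array weights gave 5 members at 6 h and 1 in SS 6 h against baseline. At 12 h the count was 1 with centred arrays and 1 without the 5 least correlated arrays, which also gave 2 members in SS 9 h against baseline. The trend over sleep gave 1 member from 0 to 6 h, and the trend over deprivation 5 without baseline and 5 with a common intercept. With time of day or run in the comparison of states, 1 member was sleep-repressed and 1 sleep-enhanced in place of 0 and 0. Without baseline, Dnajb9 had a deprivation slope of -0.00394. Over all probe sets, the pooled count of 2979 lay between 229 and 632 in the single runs, at 1826 with the 6 h arrays left out and at 1567 with those of 9 h left out. Fitted alone, the 4 times called 0.447, 1.46, 1.29 and 0.984% of all probe sets, in place of 1.59, 2.58, 3.31 and 3.13%. SS 3 h against baseline gave 168 with array weights and 264 with run as a block in place of 57, and SS 6 h against baseline 1059 with array weights in place of 547. The trend over sleep had 740 calls from 0 to 6 h in place of 6241, and the trend over deprivation 910 from 0 to 6 h and 1726 without baseline in place of 3611. The cause of these changes was not tested. With single arrays left out, the counts ranged from 5 to 6 (pooled), 3 to 5 (3 h), 1 to 3 (6 h), 1 to 1 (9 h) and 1 to 2 (12 h), and Herpud1 was called in each case at each time. No paired analysis was possible because the labels give no number that groups share. Derl3 lies near the lower end of the signal, where intensities compress differences.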
